A study of Mus musculus with 18 samples.

Results

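The immunity-related GTPases (IRG) of the mouse were followed through the response of tumor cells to IFNγ, with and without catalytic inhibition of P300/CBP. The family was represented by 9 genes, Irgm1, Irgm2, Igtp, Iigp1, Gm4841, Gm12250, Tgtp1, Tgtp2 and Ifi47, taken by gene symbol from the 43629 genes of the count table. All 9 genes passed the filter on low counts that left 11964 genes for testing. AT3 cells, a mouse mammary carcinoma line that serves as a model of triple-negative breast cancer, were first exposed for 1 h to DMSO vehicle, to A-241 at 250 nM or to A-485 at 1000 nM. Recombinant mouse IFNγ (1 ng/mL) or vehicle was then added for 2 h, so that the inhibitors were present for 3 h in all. The 6 conditions, called DMSO, A-241, A-485, IFNγ, A-241+IFNγ and A-485+IFNγ, held 3 libraries each. Both compounds inhibit the acetyltransferase domain of P300 and CBP, and their doses differed, so that differences between them are between these doses. Messenger RNA was measured by QuantSeq, which reads the 3′ ends of transcripts. The libraries come from 1 cell line. The study's methods call the triplicates technical and the sample labels call them biological, so the p-values below may measure technical spread only.

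IRG proteins are GTPases that interferons induce in mouse cells and that act against intracellular parasites and bacteria. Most of them, the GKS class, load onto the membrane of the vacuole that encloses the pathogen and help to break it. The GMS class, named for a change in the nucleotide-binding loop, sits on the membranes of the cell itself and keeps the GKS proteins inactive there. Irgm1, Irgm2 and Igtp (Irgm3) belong to the GMS class. Iigp1 (Irga6), Gm12250 (Irgb10), Tgtp1 and Tgtp2 (Irgb6), Ifi47 (Irgd) and Gm4841, a relative of Iigp1, belong to the GKS class. Genes that IFNγ induces often carry gamma-activated sites (GAS) and interferon-stimulated response elements, and the latter are bound by factors of the IRF family such as IRF1.

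The genes lie in few clusters. In GENCODE vM21 of GRCm38, Irgm1 (chr11:48861968-48871683), Tgtp1 (chr11:48985327-48994172), Tgtp2 (chr11:49057194-49064206) and Ifi47 (chr11:49076587-49096974) form one group. Gm12250 (chr11:58187739-58189012), Igtp (chr11:58199556-58207591) and Irgm2 (chr11:58199618-58222782) form another on the same chromosome. Iigp1 and Gm4841 lie elsewhere. All are annotated there as protein coding except Gm12250, which is a processed pseudogene of a single exon in GENCODE and a protein-coding gene in RefSeq. The RefSeq gene ends 1186 bases beyond the GENCODE exon, in the direction in which 3′ reads fall.

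Promoters were read for the letters of both elements, as a description without a test. The RefSeq table of promoters (GRCm38.p6), which covers 250 bases before to 50 bases after each start, held 7 of the 9 genes. It had no entry for Iigp1 and Gm4841. The core of an IRF site was searched as GAAA, any 2 bases and GAAA again, and that of a GAS as TTCNNNGAA, on both strands. The IRF core was found in 6 of the 7 windows and in 3.44% of all 32851 windows. The GAS core was found in 5 of the 7 and in 8.3% of all. Both cores, starting within 30 bases of each other, were found in 5 of the 7 and in 0.161% of all windows. The limit of 30 bases was not part of the plan. Igtp and Irgm2 have nearly the same stretch, and those of Tgtp1 and Tgtp2 are alike too, so the 5 are not separate cases. The stretches below are shown because they carry these matches, in capitals, within the bases before the start, and the stretch of Ifi47 is shown because its whole window had none. Each is written in the direction of its gene.
Igtp (chr11:58199477-58199555, plus strand): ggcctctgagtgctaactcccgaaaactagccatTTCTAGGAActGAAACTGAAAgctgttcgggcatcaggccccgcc
Irgm2 (chr11:58214868-58214947, plus strand): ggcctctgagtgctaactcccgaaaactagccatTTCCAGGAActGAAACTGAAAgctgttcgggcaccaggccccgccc
Irgm1 (chr11:48871421-48871495, minus strand): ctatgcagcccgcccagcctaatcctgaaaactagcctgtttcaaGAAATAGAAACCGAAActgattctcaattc
Tgtp1 (chr11:48992289-48992368, minus strand): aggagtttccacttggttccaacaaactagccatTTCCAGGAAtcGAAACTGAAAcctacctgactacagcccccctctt
Tgtp2 (chr11:49064248-49064327, minus strand): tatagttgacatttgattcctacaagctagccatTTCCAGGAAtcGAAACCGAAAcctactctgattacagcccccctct
Gm12250 (chr11:58183707-58183831, plus strand): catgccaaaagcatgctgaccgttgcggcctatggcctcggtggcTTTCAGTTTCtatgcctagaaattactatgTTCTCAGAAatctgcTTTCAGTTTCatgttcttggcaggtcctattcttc
Ifi47 (chr11:49076487-49076586, plus strand): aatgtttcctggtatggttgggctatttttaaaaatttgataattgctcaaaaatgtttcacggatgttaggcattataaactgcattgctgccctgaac
In Igtp, Irgm2, Tgtp1 and Tgtp2 the GAS core came first and the IRF core directly after it. Irgm1 had 2 overlapping IRF cores and no GAS core. In Gm12250 both IRF cores lay on the opposite strand, on either side of the GAS core. A match describes the letters only, and binding was not measured in these files. Only 1 window was read for each gene, and Ifi47 has 5 transcripts in GENCODE vM21, so any other starts were not searched.

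**Figure D1:**
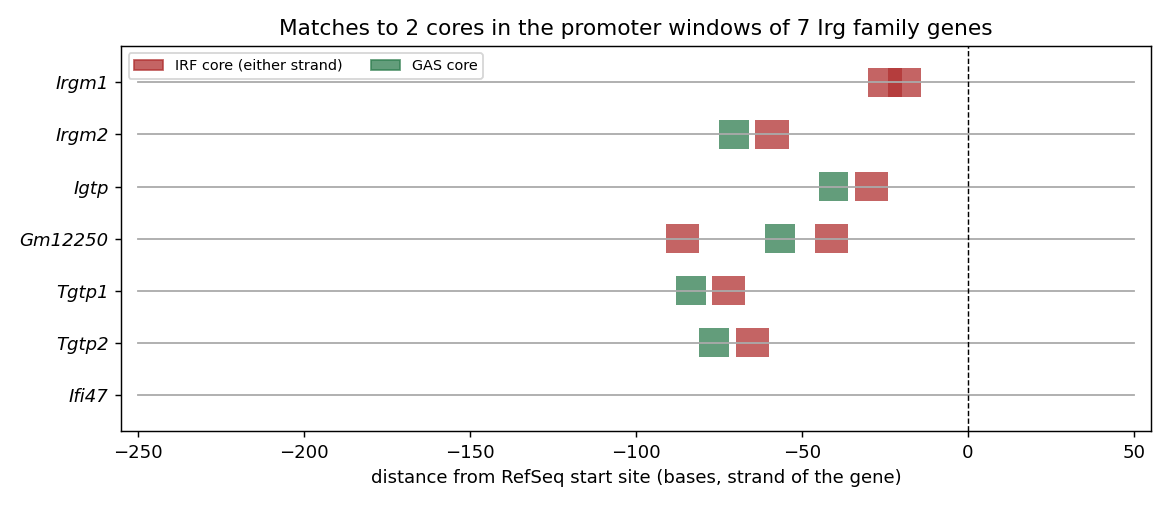
Positions of the matches to the IRF core (red) and the GAS core (green) in the promoter windows of 7 genes, in bases from the RefSeq start site (dashed line) along the strand of the gene. Igtp, Irgm2, Tgtp1 and Tgtp2 share the order GAS core then IRF core, Irgm1 has overlapping IRF cores, and Ifi47 has no match in its window.

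Some of these rows could share reads. Tgtp1 and Tgtp2 have last exons of 2568 bases each that differ at 5 positions, with 0 differences in the last 500 bases. Their counts were identical in 8 libraries, and Tgtp1 was the higher in the other 10. The largest difference was 36 counts, in IFNγ replicate 2, and the next was 15 counts. The 2 rows are therefore close to 1 measurement. They are reported side by side and enter the counts and medians over the 9 genes as 2 genes, and the family's summed level once. Igtp and Irgm2 share 162 exon bases, at the 5′ end of both, which lie 7812 bases from the end of Igtp and 23003 bases from that of Irgm2. A read there would have been counted for both. Igtp exceeded Irgm2 in all 18 libraries, which does not show how many reads Igtp and Irgm2 shared.

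Total counts were between 3417167 and 7856830 per library. DMSO replicate 3 and IFNγ replicate 2 stood apart from the other libraries of their conditions. Gm42418, a transcript that overlaps ribosomal RNA sequence, took 20.1% and 23.0% of their counts and between 7.11% and 16.2% in the others. Epithelial markers (Epcam, Krt8, Krt18, Krt5, Krt14 and Cdh1) were all detected, and their summed level was between 963 and 1770 counts scaled to library size (CPM). It was between 1520 and 1770 CPM with DMSO, between 1320 and 1493 with IFNγ, between 963 and 1107 with A-241+IFNγ and between 1031 and 1179 with A-485+IFNγ, so that it was lower under either inhibitor. The part of this in the results below was not tested. Of 9 immune markers, Adgre1 had no count, and the summed level of all 9 was at most 44.0 CPM, with ranges that overlapped between DMSO and IFNγ. The levels of fibroblast and endothelial markers were at most 3.92 and 4.12 CPM, and Cdh5 had no count. Since whole libraries were compared, less RNA per cell and fewer responding cells cannot be told apart.

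Under steady-state conditions the IRG genes were low, and Gm4841, Gm12250, the Tgtp pair and Ifi47 were near the limit of detection. IFNγ raised all 9 genes within 2 h (adjusted p under 0.01, edgeR). Among all genes tested, 1.20% were called higher with IFNγ. Over the 9 genes the fitted log2 fold change was between 4.51 and 11.14 with a median of 6.89, and the median over all genes was -0.003. In no member did a library with IFNγ overlap a library with DMSO, a separation found in 4.16% of all genes tested. The summed level of the family, with the Tgtp pair counted once, was between 12.4 and 17.3 CPM with DMSO. With IFNγ it was 1648, 991 and 1614 CPM in replicates 1, 2 and 3.

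The GMS regulators had a measurable level without IFNγ. Igtp had 24, 28 and 18 counts with DMSO and 2028, 973 and 1583 with IFNγ. As CPM this was 5.22 ± 0.91 and 271 ± 20.7 (SD, n = 3), with every IFNγ library far above every DMSO library. The log2 fold change of Igtp was 5.72 (standard error, SE, 0.23, adjusted p = 1.50e-10, edgeR). Irgm1, whose product acts in autophagy and in the survival of infected hosts, had 10, 22 and 4 counts with DMSO and 454, 160 and 384 with IFNγ. Its log2 fold change of 4.51 (SE 0.28, adjusted p = 3.52e-08, edgeR) was the smallest of the family. Irgm2 had 11, 19 and 3 counts with DMSO and 1081, 93 and 714 with IFNγ, so that replicate 2 was far below the others but still above DMSO. Its log2 fold change was 5.38 (SE 0.55, adjusted p = 1.24e-05, edgeR).

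Of the GKS effectors, only Iigp1 had a DMSO level in the range of the GMS genes, with a mean of 4.35 CPM against 5.22 for Igtp, 2.32 for Irgm1 and 2.11 for Irgm2. The means of the other effectors were at most 0.808 CPM. Iigp1, the best studied effector of the family, lies on chromosome 18 as Gm4841 does, and had 25, 32 and 8 counts with DMSO and 5674, 1208 and 3690 with IFNγ. The IFNγ libraries were all far above those with DMSO, and the log2 fold change was 6.97 (SE 0.33, adjusted p = 1.91e-09, edgeR). Gm4841 had 4, 2 and 0 counts with DMSO and 2372, 460 and 1610 with IFNγ. Its log2 fold change was 9.04, and the lower end of the 95% interval was 7.96. Tgtp1 had 3, 7 and 2 counts with DMSO and 1053, 143 and 780 with IFNγ, and Tgtp2 had 3, 7 and 2 and 1038, 107 and 769. Their log2 fold changes were 6.89 and 6.82, each with IFNγ replicate 2 as the lowest of its group.

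Gm12250, whose protein opens bacterial membranes together with guanylate-binding proteins, had no count in any DMSO library. It had 371, 250 and 266 counts with IFNγ. Against a floor of 3 counts in the DMSO library of least depth, it was at least 53.6-fold higher with IFNγ. Ifi47, among the first IRG genes described, had 1, 0 and 1 counts with DMSO and 405, 48 and 226 with IFNγ. It was at least 33.3-fold higher by the same floor, and all 3 IFNγ libraries were above it. With both genes placed at these bounds, the median log2 fold change of the family was at least 5.74, which is the bound of Gm12250 itself.

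**Figure D2:**
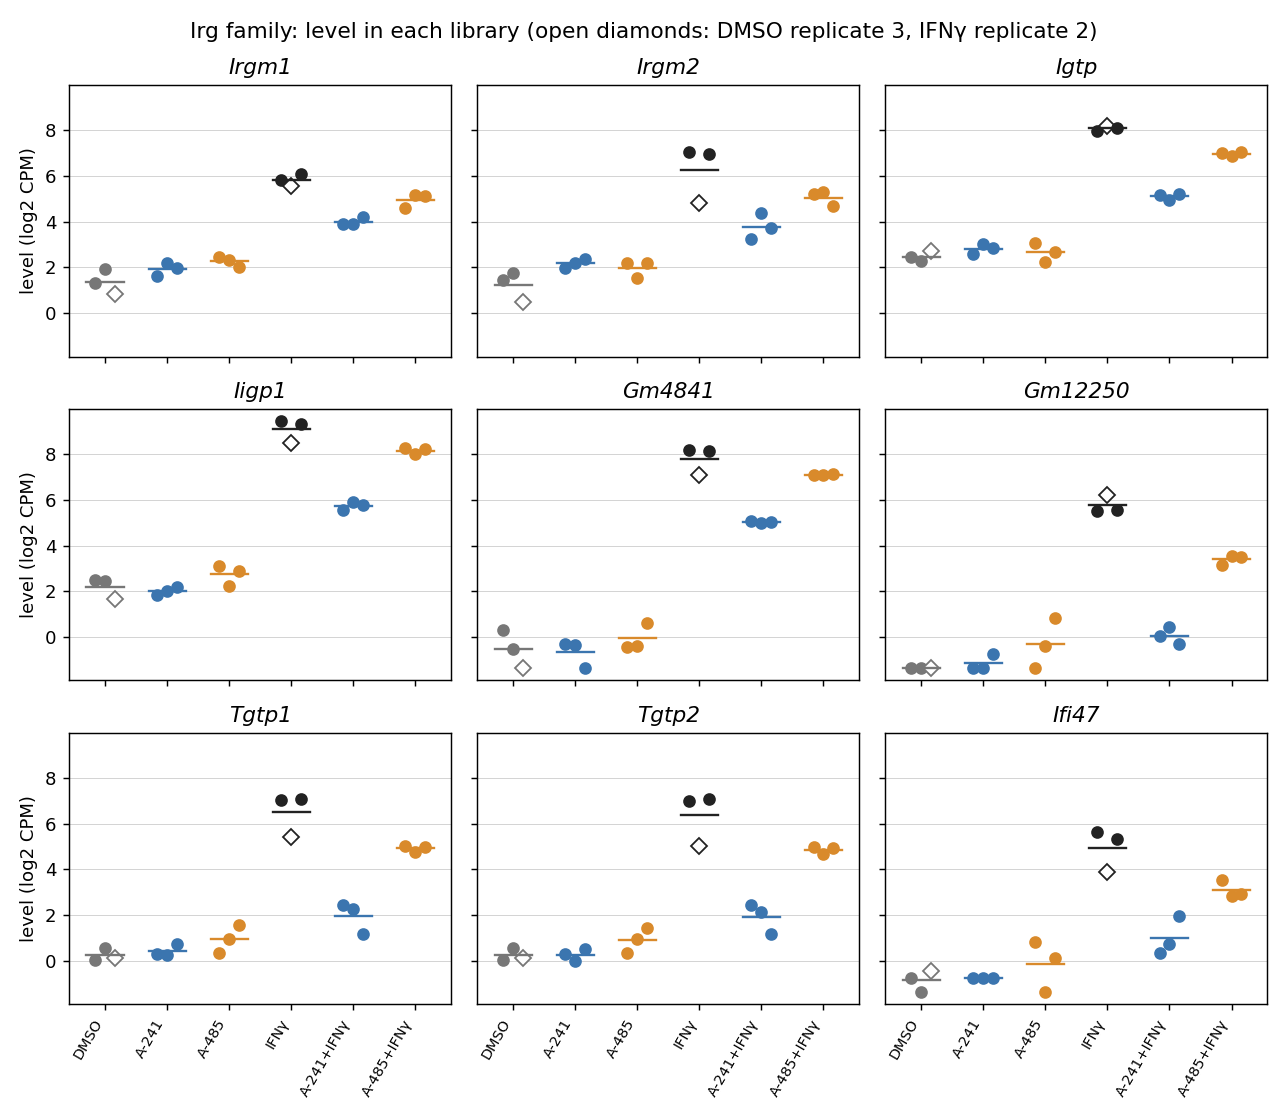
Level of each IRG gene (log2 CPM, prior count 2) in every library of the 6 conditions. Points are libraries, bars are means of 3 libraries, and open diamonds mark DMSO replicate 3 and IFNγ replicate 2. In all 9 genes the A-241+IFNγ libraries lie below the A-485+IFNγ libraries, and in Irgm2, Iigp1, Gm4841, Tgtp1, Tgtp2 and Ifi47 IFNγ replicate 2 lies below the other IFNγ libraries by more than their distance from each other.

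With the inhibitors alone no member passed the test. The summed level of the family was between 16.6 and 21.2 CPM with A-241 and between 18.1 and 28.4 CPM with A-485, so that all A-485 libraries were above those with DMSO. With A-241, 0 of the 9 genes were called lower than with DMSO and 0 higher (edgeR), where 3.53% of all genes tested were called lower and 0.827% higher. At an unadjusted p under 0.05, 0 members passed in either direction, where 1566 of all genes were lower and 1216 higher. DESeq2 and limma-voom called 0 as lower too. With A-485, 0 were called in either direction by edgeR, where 0.619% of all genes were called lower and 0.0418% higher. At an unadjusted p under 0.05, 2 members were higher, beside 491 of all genes tested. All 9 had a positive difference from DMSO with A-485, with a median of 0.83 on the log2 scale against -0.0038 over all genes. The 2 with an unadjusted p under 0.05 were Irgm1 and Gm12250. Irgm1 had 29, 24 and 16 counts (log2 difference from DMSO 0.86, 95% interval 0.21 to 1.50, adjusted p = 0.216, edgeR). Gm12250 had 0, 2 and 6 counts. Without DMSO replicate 3 and IFNγ replicate 2, the difference was 0.62 (SE 0.32) for Irgm1, 0.32 for Iigp1 and 0.09 for Gm4841. All members stayed positive there, and Igtp, Gm12250 and Ifi47 had larger differences than with all libraries. Between A-241 and A-485, 0 members were called (edgeR, DESeq2 and limma-voom), where 0.351% of all genes were lower with A-241 and 0.0167% higher. At an unadjusted p under 0.05, 555 of all genes tested were lower with A-241, and 1 of them was a member. This was Iigp1, which had 15, 18 and 20 counts under A-241 and 47, 23 and 30 under A-485, and its interval was -1.50 to -0.18 on the log2 scale. For Igtp the difference of A-241 from DMSO had an interval of -0.07 to 0.86. At these counts, smaller changes in the other members were not detectable.

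In the presence of A-241, IFNγ-treated cells had much less of every IRG transcript. All 9 genes were lower with A-241+IFNγ than with IFNγ alone, where 3.54% of all genes tested were called lower (adjusted p under 0.01, edgeR). The log2 fold change was between -6.25 and -1.86 with a median of -3.41, against -0.02 over all genes. All libraries with A-241+IFNγ were below all libraries with IFNγ in each of the 9 genes, which was so in 12.1% of all genes. The summed level was between 145 and 163 CPM. With only these 2 conditions in the fit 6 were called, without Irgm2, Tgtp2 and Ifi47 (adjusted p up to 0.0771, edgeR).

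The GMS regulators fell by between 1.86 and 2.98 on the log2 scale. Irgm1 had 66, 89 and 88 counts with A-241+IFNγ, below all of its IFNγ libraries. Its log2 fold change of -1.86 (SE 0.23, adjusted p = 7.52e-05, edgeR) was the smallest decrease. Igtp had 166, 188 and 176 counts, a narrow range that corresponds to 34.3 ± 3.20 CPM (SD, n = 3). Igtp fell by 2.98 on the log2 scale (SE 0.19, adjusted p = 1.68e-07, edgeR). Irgm2 had 42, 127 and 62 counts, of which the lowest IFNγ library, with 93 counts in a smaller library, was only just above in CPM (27.6 against at most 20.7). Irgm2 fell by 2.74 (SE 0.46, adjusted p = 0.00104, edgeR), and this did not pass the threshold without A-241+IFNγ replicate 1 or 3 (adjusted p up to 0.011, edgeR).

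Among the effectors, Iigp1 had 212, 362 and 264 counts with A-241+IFNγ, and fell by 3.41 on the log2 scale (adjusted p = 7.45e-07, edgeR). Gm4841 had 152, 192 and 159 counts, close to each other at 32.3 ± 0.946 CPM (SD, n = 3), and fell by 2.87 (adjusted p = 3.07e-05, edgeR). The other effectors had few counts left. Tgtp1 had 23, 27 and 9 counts and fell by 4.77 (SE 0.43, adjusted p = 2.91e-06, edgeR), and Tgtp2 had 23, 25 and 9 counts. Ifi47 had 4, 8 and 17 counts and fell by 4.20 (SE 0.57, adjusted p = 0.00015, edgeR). Gm12250 had 3, 6 and 2 counts where IFNγ alone gave at least 250. It fell by 6.25 (SE 0.51, adjusted p = 3.17e-06, edgeR), the largest decrease of the family.

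With A-485 the differences from IFNγ alone were smaller in size, and most fell short of the threshold. All 9 genes had a negative log2 fold change between A-485+IFNγ and IFNγ, from -2.43 to -0.78 with a median of -1.51 (-0.03 over all genes). Only Igtp and Gm12250 passed the threshold, where 0.535% of all genes tested were called lower. In 7 genes all A-485+IFNγ libraries were below all IFNγ libraries, as in 10.0% of all genes. Irgm2 and Gm4841 overlapped, in both through IFNγ replicate 2. Igtp had 667, 581 and 696 counts with A-485+IFNγ, or 126 ± 7.06 CPM (SD, n = 3), and fell by 1.11 on the log2 scale (SE 0.18, adjusted p = 0.00468, edgeR). Gm12250 had 44, 56 and 57 counts and fell by 2.43 (SE 0.38, adjusted p = 0.00515, edgeR).

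The number of members called with A-485 turned on IFNγ replicate 2. Without this library 7 of the 9 genes were called lower, and 0.615% of all genes were. Without both IFNγ replicate 2 and DMSO replicate 3 all 9 were, and 2.37% of all genes were. The log2 fold changes were then between -2.42 and -0.97, and that of Irgm2, which has 190, 194 and 132 counts with A-485+IFNγ, moved from -1.51 (adjusted p = 0.0956, edgeR) to -1.95 (adjusted p = 1.99e-05, edgeR). That of Tgtp1, with 168, 132 and 165 counts, moved from -1.78 (adjusted p = 0.0184, edgeR) to -2.15 (adjusted p = 2.05e-06, edgeR). That of Irgm1, with 125, 176 and 183 counts, stayed near its value, at -0.85 (adjusted p = 0.07, edgeR) and -0.97 (adjusted p = 0.00268, edgeR). On the other side, 0 members were called without IFNγ replicate 3 or without any 1 of the A-485+IFNγ libraries, and 2 were called without IFNγ replicate 1. The values of the remaining genes were 1620, 1246 and 1555 counts for Iigp1, 714, 671 and 737 for Gm4841, 164, 124 and 159 for Tgtp2 and 59, 33 and 38 for Ifi47.

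**Figure D3:**
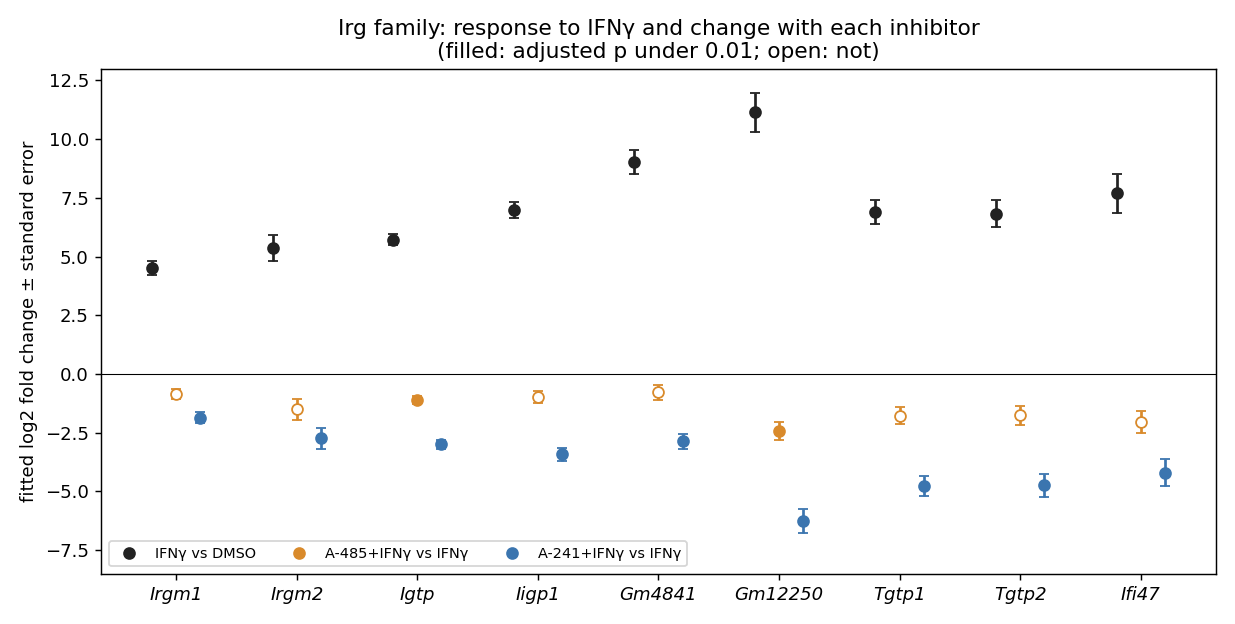
Fitted log2 fold change of each IRG gene, with its standard error, for IFNγ against DMSO (black), A-485+IFNγ against IFNγ (orange) and A-241+IFNγ against IFNγ (blue). Filled points passed an adjusted p under 0.01. All 9 genes passed for IFNγ and for A-241, and Igtp and Gm12250 passed for A-485. The black points of Gm12250 and Ifi47 rest on DMSO libraries with at most 1 count and are not bounds.

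Set directly against each other in IFNγ-treated cells, A-241 at 250 nM left less IRG transcript than A-485 at 1000 nM. Of the 9 genes, 6 were called lower with A-241+IFNγ than with A-485+IFNγ, where 0.510% of all genes tested were. All A-241+IFNγ libraries were below all A-485+IFNγ libraries in each of the 9 genes, which was so in 11.8% of all genes. The genes called were Igtp (log2 difference -1.88, SE 0.19, adjusted p = 5.35e-05, edgeR), Iigp1 (-2.43), Gm4841 (-2.09), Gm12250 (-3.82), Tgtp1 (-2.99) and Tgtp2 (-2.98). Irgm1 (-1.01, 95% interval -1.50 to -0.51), Irgm2 (-1.23, -2.17 to -0.29) and Ifi47 (-2.15, -3.38 to -0.92) did not pass, with adjusted p of 0.0553, 0.454 and 0.141 (edgeR). The count depended on single libraries. It was 3 without A-241+IFNγ replicate 1 and 2 without replicate 2 or replicate 3 of the same condition. Without IFNγ replicate 2 and DMSO replicate 3, which are in neither condition, all 9 were called, beside 1.24% of all genes called lower.

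IFNγ still raised part of the family when an inhibitor was present. With A-241, 4 genes were called higher with IFNγ than without it, and 0.192% of all genes tested were. They were Igtp (log2 fold change 2.34, SE 0.20, adjusted p = 5.51e-06, edgeR), Irgm1 (2.15), Iigp1 (3.85) and Gm4841, which rose from 2, 2 and 0 counts and was at least 51.2-fold higher. Irgm2 had 17, 21 and 23 counts with A-241 and 42, 127 and 62 with A-241+IFNγ, which did not pass (adjusted p = 0.369, edgeR). Nor did the Tgtp pair, Ifi47 and Gm12250, although in all 9 genes the libraries with IFNγ lay above those without, as in 6.08% of all genes. With A-485, 8 genes were called higher with IFNγ than without it, where 0.744% of all genes were. Their log2 fold changes were between 2.80 (Irgm1) and 7.79 (Gm4841), and that of Ifi47 was 3.51 (SE 0.68, adjusted p = 0.0107, edgeR).

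The response that remained was computed for each gene as the CPM gained with IFNγ under an inhibitor, in percent of the CPM gained without it. With A-241 it was between 1.10% (Gm12250) and 22.3% (Irgm1), with a median of 8.80%. The gain of Gm12250 was 0.61 CPM, less than the floor of 3 counts (0.631 CPM with A-241), so its share is near the limit of detection. Next to Gm12250 stood Tgtp1 with 2.73%, Tgtp2 with 2.90% and Ifi47 with 4.91%. Iigp1 kept 8.80%, Igtp 10.4%, Irgm2 10.8% and Gm4841 13.6%. With 1 library left out, Irgm1 stayed between 20.04% and 24.6%, above all others, and Gm12250 between 0.833% and 1.34%, below all others. The ranges of Igtp (9.93% to 11.05%), Iigp1 (7.43% to 9.94%) and Irgm2 (7.26% to 13.5%) met or overlapped, and those of Tgtp1, Tgtp2 and Ifi47 did too.

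With A-485 the response that remained was between 17.3% (Gm12250) and 58.0% (Gm4841), with a median of 32.3%. Irgm1 kept 49.6%, Igtp 44.9% and Iigp1 49.7%. Ifi47 kept 22.4%, Tgtp1 27.9%, Tgtp2 28.2% and Irgm2 32.3%. With 1 library left out the range of Gm12250 (15.9% to 20.9%) overlapped that of Ifi47 (17.33% to 28.8%), and that of Gm4841 (47.9% to 65.7%) overlapped those of Irgm1 and Iigp1. In each of the 9 genes the range with 1 library left out lay higher for A-485 than for A-241. These shares rest on the same DMSO and IFNγ libraries for both inhibitors, and no test was made of them. Without DMSO replicate 3 and IFNγ replicate 2, the medians were 7.44% with A-241 and 23.8% with A-485. Ifi47 (17.3%) was then below Gm12250 (20.9%) under A-485.

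**Figure D4:**
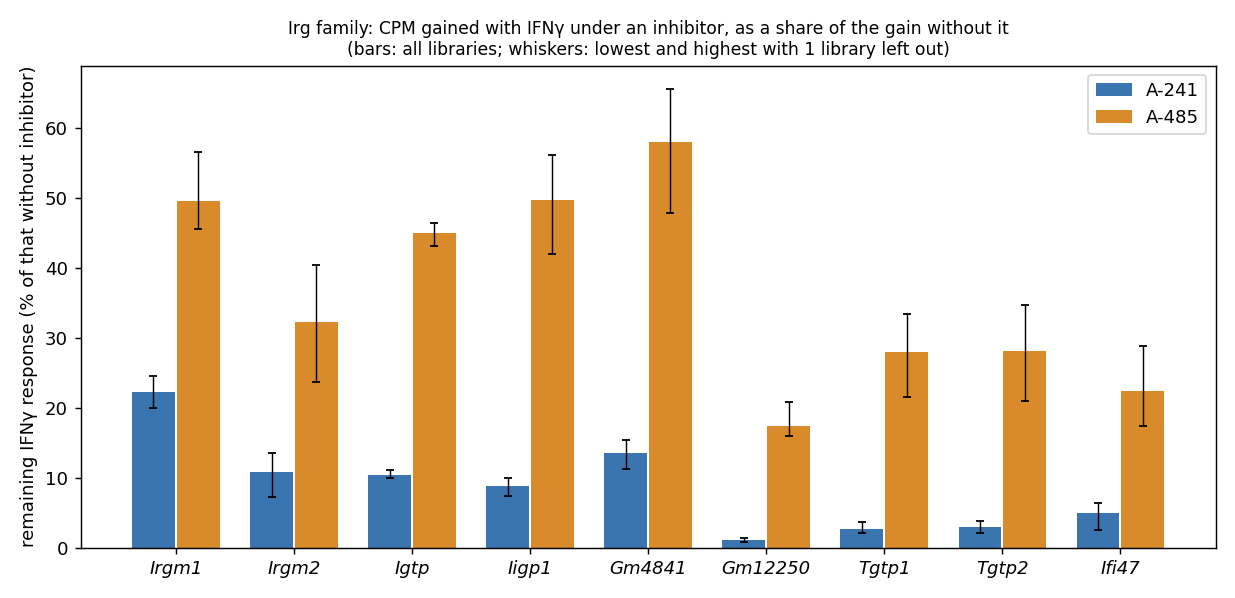
CPM gained with IFNγ in the presence of A-241 (blue) or A-485 (orange), in percent of the gain without an inhibitor, for each IRG gene. Bars use all libraries, and whiskers span the lowest and highest value with 1 library left out. Irgm1 and Gm4841 kept the most under A-241 (22.3% and 13.6%), and Gm12250 the least (1.10%). Under A-485 the whiskers of Gm12250 and Ifi47 overlap.

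On the log scale, the interaction tests whether the fold induced by IFNγ differed with the inhibitor. With A-241 it was negative in all 9 genes and called in 2, Igtp (-3.38, SE 0.29, adjusted p = 3.22e-05, edgeR) and Iigp1 (-3.12, SE 0.42, adjusted p = 0.00379, edgeR). Across all genes 4 were called, or 0.0334% of those tested. Irgm1 had -2.36 (adjusted p = 0.029, edgeR), Irgm2 -3.62 (adjusted p = 0.112, edgeR) and Tgtp1 -4.95 (adjusted p = 0.0458, edgeR). Without IFNγ replicate 2 and DMSO replicate 3, 6 genes were called, and 0.107% of all genes were. These were Igtp, Irgm1, Irgm2, Iigp1, Tgtp1 and Tgtp2. Iigp1 passed with all libraries but lost its call in 10 of the 12 fits without 1 library (adjusted p up to 0.0306, edgeR). With A-485 the interaction was negative in all 9 genes and called in 0 (0 of all genes, edgeR). At an unadjusted p under 0.05, 8 members were lower and 0 higher (edgeR). Of all genes tested, 258 were higher at this p and fewer than 258 were lower. DESeq2 called 2 members and limma-voom 0, and the shares of all genes were not computed for these. The interaction of A-485 was -1.38 for Igtp (95% interval -1.98 to -0.78) and -1.53 for Iigp1 (-2.36 to -0.69). The interactions of the inhibitors did not differ past the threshold in any member (0 of all genes in edgeR, 1 member in DESeq2 and 0 in limma-voom). At an unadjusted p under 0.05 the difference was negative in 4 members, beside 179 of all genes tested (edgeR). For Igtp the difference was -2.0 (adjusted p = 0.0282, edgeR). Gm12250, Gm4841 and Ifi47 have too few counts without IFNγ for their interactions to be read, the sign included. Tgtp1 had between 2 and 7 counts with DMSO and between 4 and 6 with A-241. The interactions of the Tgtp pair therefore rest on few counts too.

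Within the IFNγ condition the members did not keep their ratios from library to library. In replicate 2, Igtp was at 1.10 times the mean CPM of replicates 1 and 3, Irgm1 at 0.775 times and Gm12250 at 1.62 times. In the same library Irgm2 was at 0.215, Tgtp1 at 0.321, Ifi47 at 0.32, Gm4841 at 0.478 and Iigp1 at 0.536 times that mean. Between replicates 1 and 3 the ratio lay between 0.831 and 1.26 in all 9 genes. The count of Irgm2 per count of Igtp was 0.533 and 0.451 in IFNγ replicates 1 and 3 and 0.0956 in replicate 2. With DMSO it was 0.458, 0.679 and 0.167, with the lowest in replicate 3, the other library rich in Gm42418. It was also uneven with A-241+IFNγ, at 0.253, 0.676 and 0.352.

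Further IRG genes were looked up from a list of 23 current and older symbols, of which 12 were in the table, 11 had counts and 5 were tested. IFNγ raised 4 of the 5 (adjusted p under 0.01, edgeR), and 1.20% of all genes tested. Gm4951, a relative of Iigp1, had 0, 0 and 1 counts with DMSO, 206, 50 and 213 with IFNγ, 1, 3 and 6 with A-241+IFNγ and 35, 30 and 26 with A-485+IFNγ. It was lower with A-241 (log2 fold change -5.28, adjusted p = 3.75e-06, edgeR) and with A-485 (-2.13, adjusted p = 0.00816, edgeR). F830016B08Rik, of the same group, had 201, 54 and 127 counts with IFNγ and 18, 39 and 31 with A-241+IFNγ, a decrease by 1.92 on the log2 scale (adjusted p = 0.00235, edgeR). 9930111J21Rik2 had 106, 23 and 57 counts with IFNγ and 3, 13 and 7 with A-241+IFNγ. Gm12185 had 51, 21 and 36 counts with IFNγ and 0, 0 and 1 with A-241+IFNγ, and 223 of its bases are also exon bases of Tgtp1. Irgq, a divergent IRG protein, had 117, 159 and 86 counts with DMSO and 154, 124 and 81 with IFNγ (log2 fold change -0.20, adjusted p = 0.942, edgeR). Irgq was not called with either inhibitor in the presence of IFNγ. The others, 9930111J21Rik1, Gm5431, Gm5970, Gm12187, Gm12186 and Gm18853, had at most 7 counts in any library with DMSO or with IFNγ, inhibitor or not.

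A list of 14 genes held the path from the IFNγ receptor to IRF1 together with related genes. The related genes were Irf2, Irf8, Irf9, Stat2, Socs1, Socs3, Nlrc5 and Ciita. Of the 14 genes, 13 were tested. IFNγ raised 6 of them, and 4 were lower with A-241+IFNγ than with IFNγ and 1 with A-485+IFNγ, beside 1.20%, 3.54% and 0.535% of all genes tested. The largest responses were those of Irf8 (log2 fold change 7.42), the feedback inhibitor Socs1 (6.51) and Irf1 (5.05). Irf1, a transcription factor on which IRG induction is known to depend, had 5869, 1373 and 4692 counts with IFNγ and 1621, 2155 and 1772 with A-241+IFNγ. The mean level was 649 and 356 CPM, and the log2 fold change was -0.87 (adjusted p = 0.0547, edgeR). This change includes IFNγ replicate 2, the IFNγ library with the fewest counts of Irf1, and the value without it is not given here. With A-241 the level of Irf8 fell by 2.43 (adjusted p = 0.00318, edgeR). Socs1 had 511, 4 and 320 counts with IFNγ, with replicate 2 at the level of DMSO (2, 4 and 0 counts).

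The guanylate-binding proteins, GTPases that act with IRG proteins at the vacuole, gave 5 tested genes of 11 listed. All 5 were higher with IFNγ, all 5 were lower with A-241+IFNγ than with IFNγ, and 2 were lower with A-485+IFNγ, against the same shares of all genes. The largest fitted responses to IFNγ were those of Gbp2b (log2 fold change 8.22, from no count with DMSO to 74, 15 and 45), Gbp4 (6.12) and Gbp2 (6.08). The value of Gbp2b rests on DMSO libraries without a count and is not a bound, so its rank is uncertain. With A-241, Gbp2b fell by 4.40, Gbp4 by 5.77 and Gbp2 by 2.01 (adjusted p = 0.000154, 0.000197 and 4.49e-06, edgeR). The 11 genes of ATG conjugation, which IRG and guanylate-binding proteins need to load onto vacuoles, were all tested and 0 were called in any comparison (edgeR). At an unadjusted p under 0.05, 0 of them were changed with IFNγ, 1 with A-241+IFNγ against IFNγ and 3 with A-241 against DMSO. For IFNγ against DMSO their median log2 fold change was 0.04. Of all genes tested, 569 were higher and 447 lower with IFNγ at this p. With A-241+IFNγ against IFNγ, 977 were higher and 1436 lower, and with A-241 against DMSO 1216 were higher and 1566 lower.

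The genes most like the family over the 18 libraries were sought among 8228 genes that were not members, by Pearson's r of their log2 CPM with the mean of the members. They were the chemokine Cxcl9 (r = 0.983), Ifi203 (0.972), Parp10 (0.969), Samhd1 (0.968), Gbp7 (0.968) and Gm43302 (0.966). Each member had an r of between 0.942 and 0.989 with the mean of the others, the lowest for Gm12250 and the highest for Iigp1. These values describe libraries that share treatments and depth, and r within the conditions was not computed.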

How the data were processed

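Raw counts per gene were deposited for 18 libraries. Per the submitters' processing notes and the methods, the authors trimmed reads with cutadapt 1.7, aligned them to GRCm38 with HISAT2 2.1.0 and counted them on exons with featureCounts, crediting a read over several genes to each and setting no strand. The annotation release and the handling of reads with several alignments are not given in the sources used here. Symbols, positions and exons were taken from GENCODE vM21, and promoters from RefSeq. Genes were kept by filterByExpr, and libraries were scaled by TMM factors. All libraries entered a single quasi-likelihood model (edgeR 4.0.16, R 4.3.3) that had 1 mean for each condition, and p-values were adjusted by Benjamini-Hochberg over the 11964 genes tested. The threshold for a call was 0.01. Levels are CPM on TMM-scaled libraries, in log2 with a prior count of 2. Standard errors came from the log2 fold change and the F statistic. The scripts were tested on simulated data. All 18 pairs of replicate libraries differed by more than sampling noise (chi-square per degree of freedom 2.09 or more). A floor of 3 counts, which is 0.368 to 1.03 CPM here, was used for lower bounds of folds, and it covers counting error only, since no molecular identifiers were used. Alternatives were DESeq2 1.42.0, limma-voom (limma 3.58.1), other scalings and filters, a threshold of 0.05, a block for the replicate number, the compared groups fitted alone, the Tgtp rows summed, both libraries rich in Gm42418 left out, and each library left out in turn. Named genes were the 9 members, the further IRG genes with a count, the 3 largest responders called with IFNγ in each related list, and the 6 genes most like the family with at least 50 counts on average in their highest condition. The members and lists were chosen with earlier results of these data known.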

Additional observations from a re-analysis of the deposited data

Results flagged for a closer look

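In 2 genes the response to IFNγ differed between cells with A-241 and cells without an inhibitor by a test of the difference itself. For Igtp the interaction was -3.38 on the log2 scale (adjusted p = 3.22e-05, edgeR), from responses of 5.72 without and 2.34 with A-241. For Iigp1 it was -3.12 (adjusted p = 0.00379, edgeR), from responses of 6.97 and 3.85. Both values are from all 18 libraries. The call of Iigp1 was lost in 10 of the 12 fits without 1 library and with limma-voom, total counts, the replicate block or only the groups compared (adjusted p up to 0.0446, edgeR or limma).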

How the results depend on the processing

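Counts of IRG genes are given out of 9. Without both libraries rich in Gm42418, the share of all genes called lower moved from 0.535% to 2.37% for A-485+IFNγ against IFNγ. It moved from 0.0334% to 0.107% for the interaction of A-241. Apart from the fit without IFNγ replicate 2, this share was not computed for the other settings. For those, a general rise in calls cannot be told apart from a rise in the members. The response to IFNγ gave 9 calls in the alternatives except a fit of only the groups compared (5) and the Tgtp rows summed (8 of 8). With these rows summed, 8 of 8 were called for A-241+IFNγ against IFNγ, 2 for A-485+IFNγ against IFNγ, 5 between the inhibitors with IFNγ and 2 for the interaction of A-241. A-241+IFNγ against IFNγ gave 6 with only the groups compared. For A-485+IFNγ against IFNγ, 2 were called, but 6 with DESeq2, 1 with total counts, 4 with no filter, 5 at a threshold of 0.05, 0 with only the groups compared and 9 without both libraries rich in Gm42418 (0 to 7 with 1 library left out). For the interaction of A-241, 2 were called, but 6 with DESeq2, 1 with limma-voom, with total counts or with only the groups compared, 4 at 0.05 and 6 without both libraries (1 to 5 with 1 library left out). The interaction of A-485 gave 2 with DESeq2. The difference of the interactions gave 1 with DESeq2, at 0.05, with only the groups compared and without both libraries (0 to 1 with 1 library left out, the 1 without A-485 replicate 1). A-241+IFNγ against A-485+IFNγ gave 2 to 5 with 1 library left out. With the replicate number as a block, 0 were called for A-485+IFNγ against IFNγ and 1 for the interaction of A-241, and the other counts stayed within 1.5 times. Pairing by number was not seen, since in 0 of 9 comparisons were all correlations of same-numbered deviations over 0.1 (-0.804 to 0.367). These deviations include DMSO replicate 3 and IFNγ replicate 2, which stand apart, so they cannot decide whether same-numbered libraries shared a batch. Apart from the fit's construction, the causes were not tested.

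Direction turned only in values that no fit called. On the log2 scale, A-241 against DMSO ranged with 1 library left out from -0.97 to 0.34 for Gm4841, 0 to 2.41 for Gm12250, -0.043 to 0.55 for Tgtp1, -0.23 to 0.33 for Tgtp2 and -0.31 to 1.02 for Ifi47, and was 0.053 with total counts and 0.091 with the Tgtp rows summed for Tgtp2. A-485 against DMSO ranged from -0.23 to 1.39 for Gm4841, and A-241 against A-485 from -0.10 to 0.38 for Igtp and -0.022 to 0.35 for Irgm2. The difference of the interactions ranged from -2.63 to 0.70 for Gm12250 and -1.58 to 0.14 for Ifi47. Depth limits the members without IFNγ, where several had no count.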
